A study of Danio rerio with 14 samples.

Results

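Transcripts of 6 circadian genes were followed in eyes of zebrafish larvae raised in tetrabromobisphenol A (TBBPA): the cryptochromes cry2 and cry2b, the cryptochrome relative cry-dash, the transcription factors tefa and dbpa, and the repressor bhlhe40. They were read from all probes whose current or older gene name in the probe annotation was one of these names. This gave 13 probes among the 17950 probes measured, and 6 of 8948 named genes. cry2 and cry-dash had 1 probe each, cry2b and bhlhe40 had 2 each, dbpa had 3 and tefa had 4. The cry2 probe is named cry3 in the array annotation, and 1 of the cry2b probes belongs to a transcript that RefSeq now names cry3b.

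In vertebrate cells the circadian clock is a feedback loop in which clock and bmal proteins switch on genes that carry E-box elements, among them the period and cryptochrome genes, whose products then repress that switch. Output factors pass the rhythm on. The PAR bZIP activators tef, dbp and hlf bind D-box elements, which nfil3 proteins occupy as repressors, and bhlhe40 and bhlhe41 repress through E-boxes. In zebrafish the clock runs in peripheral tissues too and is set directly by light, and in zebrafish cells tefa takes part in light-driven transcription through D-boxes. Cryptochromes share their ancestry with photolyases, the enzymes that repair ultraviolet damage in DNA with the energy of light, and cry-dash proteins repair single-stranded DNA in plants and bacteria.

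The groups were TBBPA at 8 days post fertilization (dpf), control at 8 dpf, TBBPA at 5 dpf and control at 5 dpf, each with 3 RNA samples from separate plates. All larvae were wild-type AB fish. TBBPA, a brominated flame retardant, was given at 200 µg/L from shortly after fertilization until 5 dpf, controls received the solvent dimethyl sulfoxide, and the 8 dpf larvae of both treatments had spent their last 3 days in clean water. Each sample held eyes pooled from 10 larvae. Dissections took place within a few hours of the morning, so each gene was seen in 1 part of the day only. The methods do not give the order of the plates within those hours. Clock genes can change over such a window, and the part of dissection time in the differences was not tested.

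Samples were compared in pairs on 14 two-colour arrays, 4 of them with TBBPA and control at 8 dpf, 6 with TBBPA and control at 5 dpf and 4 that linked the ages. Values are log2 ratios. They give differences between samples and no absolute level, so levels are not compared between genes. Of 41 listed markers of retinal cells, 36 had a probe that had passed the authors' filter on dim spots, which is as far as these ratios allow the labelled tissue to be checked. A probe was called at an adjusted p under 0.05, from limma with Benjamini-Hochberg adjustment over all 17950 probes. Levels of single samples come from the same ratios and are given on the log2 scale relative to the mean of the 12 samples.

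At 8 dpf, 9 of the 13 probes were called lower after TBBPA, against 0.696% of all probes, and 1 of 13 was called higher, against 0.696% of all probes. At 5 dpf, 10 of 13 were called lower, against 2.84% of all probes, and 1 of 13 was called higher, against 4.23%. The probes that were lower belonged to cry2, tefa, dbpa and bhlhe40 at both ages and to cry-dash at 5 dpf, and the probe that was higher belonged to cry2b at both ages. 9 of the 13 probes were called in the same direction at both ages, against 0.652% of all probes. The 13 probes stand for 6 genes, and these were chosen with earlier results of these data known. The median log2 fold change of the 13 probes was -0.78 at 8 dpf and -0.80 at 5 dpf, where the median of all probes was 0.00 at each age. RNA of an eye comes from many cell types, and fewer cells of a type and less RNA per cell cannot be told apart in these samples.

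**Figure D1:**
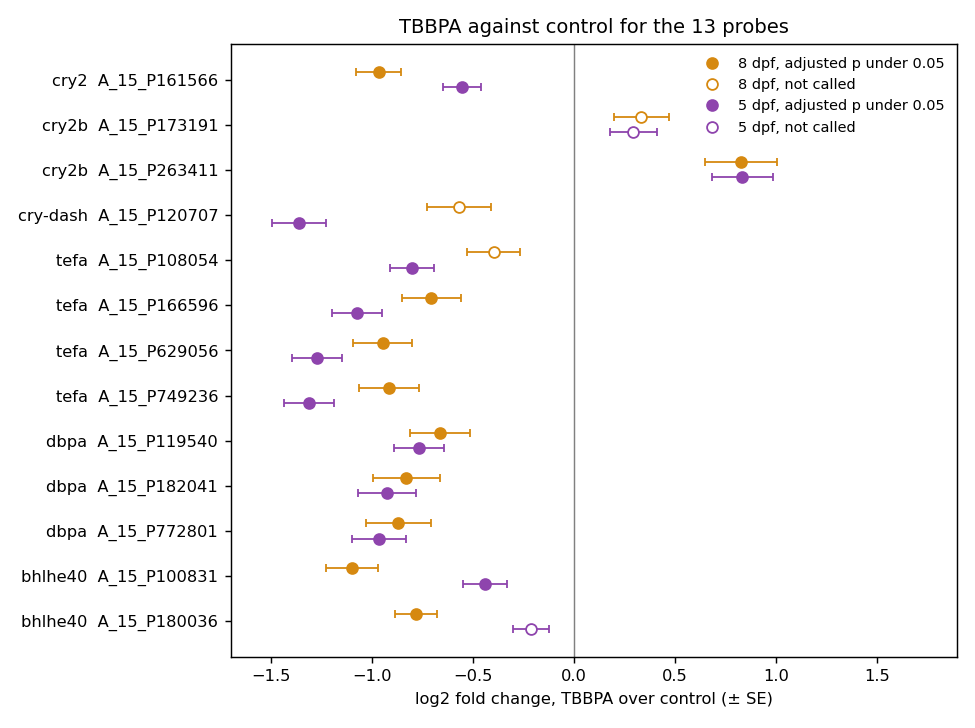
The plot of effects per probe shows the log2 fold change of TBBPA over control (horizontal axis, bars ± SE from limma) for each of the 13 probes, with 8 dpf above 5 dpf and filled points where the adjusted p was under 0.05. Both cry2b probes lie right of 0 and the other 11 probes lie left of it at both ages.

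The plates were compared as well. In the separate samples, 11 of 13 probes at 8 dpf had all 3 TBBPA samples below all 3 controls, against 2.69% of all probes, and 1 of 13 had them above, against 3.48%. At 5 dpf, 11 of 13 had the TBBPA samples below the controls, against 9.18% of all probes, and 1 of 13 above, against 8.54%. The smallest p that an exact permutation test of 3 against 3 samples can give is 0.1, so it cannot pass 0.05 for a single probe. The limma fit described above treats the arrays as replicates, because it assigned no share of the variance to the RNA samples. That share was a single estimate over all probes together, so it does not show that the plates agreed for these 13. The dbpa probe A_15_P772801 was at -1.50 and -1.58 on the 5 dpf arrays that compared TBBPA with control replicate 1. On those with control replicate 3 it was at -0.35 and -0.46. When the 12 plates were the replicates, 0 of 13 probes had an adjusted p under 0.05 at either age. Of all probes 0 did at 8 dpf and 1 at 5 dpf. The plate fit took the 12 levels as independent and equally precise, although samples shared arrays and were not all on the same number of arrays. Without adjustment, that fit gave a p under 0.05 to 12 of 13 probes at 8 dpf, against 4.91% of all probes, and to 11 of 13 at 5 dpf, against 7.18%. The calls below are those of the array fit.

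Among the cryptochromes, cry2 was lower after TBBPA at both ages. At 8 dpf its levels were -0.13, -0.10 and -0.37 in TBBPA replicates 1 to 3, against 0.90, 1.04 and 0.47 in controls, a log2 fold change of -0.97 ± 0.11 (SE, adjusted p = 0.00128). At 5 dpf they were -0.57, -0.48 and -0.66 in TBBPA samples, against 0.24, 0.12 and -0.45 in controls, a change of -0.55 ± 0.09 (adjusted p = 0.00312). The groups were well apart at 8 dpf, whereas at 5 dpf replicate 3 of the control lay next to the TBBPA samples. On the arrays that held both treatments, cry2 was lower on 4 of 4 at 8 dpf (-1.21 to -0.62) and on 6 of 6 at 5 dpf (-0.97 to -0.15).

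cry2b, which encodes a cryptochrome that can repress transcription driven by clock and bmal in zebrafish cell assays, was the gene that moved the other way. Its mean level over both probes was 0.58, 0.64 and 0.77 in TBBPA samples at 8 dpf, against 0.03, 0.27 and -0.04 in controls. At 5 dpf it was -0.41, -0.06 and 0.18 in TBBPA samples, against -0.98, -0.60 and -0.38 in controls. By this mean the TBBPA samples stood above all controls at 8 dpf, and at 5 dpf replicate 1 of TBBPA lay between control replicates 2 and 3. By single probes, the groups overlapped at 5 dpf but not at 8 dpf for A_15_P263411. For A_15_P173191 they overlapped at 8 dpf but not at 5 dpf. The probes of cry2b differed in size. A_15_P263411 was higher by 0.83 ± 0.18 at 8 dpf (adjusted p = 0.0332) and by 0.83 ± 0.15 at 5 dpf (adjusted p = 0.00449). In a limma fit that also allowed for a dye effect, its 8 dpf value was not called (adjusted p = 0.0585). A_15_P173191, the one matched to the transcript now named cry3b, had values of 0.33 ± 0.14 (adjusted p = 0.333) and 0.29 ± 0.12 (adjusted p = 0.144) and was not called. At 8 dpf A_15_P263411 was higher on 4 of 4 direct arrays, whereas A_15_P173191 was lower on 1 of 4.

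cry-dash had the lowest fold change of the members at 5 dpf. Its levels there were -0.67, -0.81 and -1.13 in TBBPA samples, against 0.93, 0.35 and 0.09 in controls, a log2 fold change of -1.36 ± 0.13 (adjusted p = 8.495e-05), or 2.57-fold lower. At 8 dpf, levels were -0.18, 0.05 and -0.09 in TBBPA samples, against 0.51, 0.42 and 0.52 in controls. The 8 dpf groups did not overlap either, and cry-dash was lower on 4 of 4 direct arrays, but the value of -0.57 ± 0.16 was not called (adjusted p = 0.111).

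**Figure D2:**
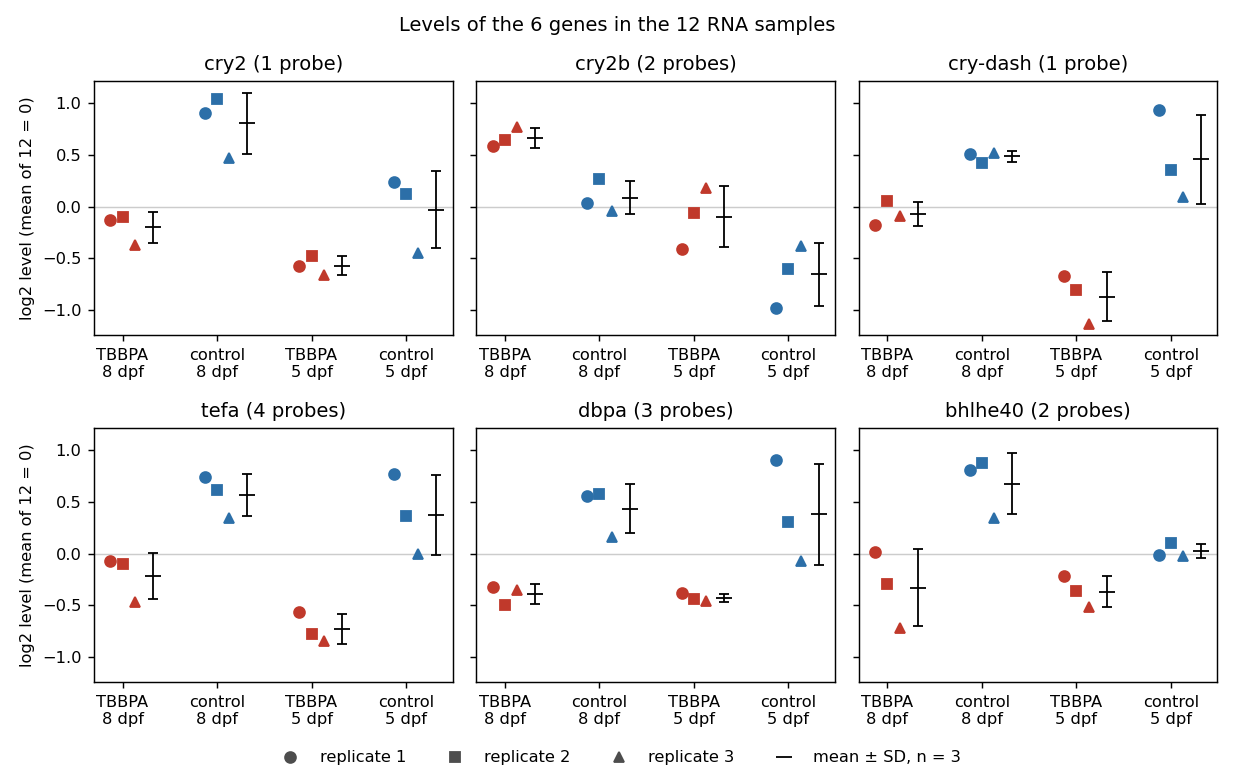
The plot of levels by sample gives the log2 level of each gene (vertical axis, mean over its probes, with the mean of the 12 RNA samples at 0) in TBBPA and control samples at 8 dpf and at 5 dpf, with a marker per replicate and mean ± SD beside it (n = 3). For cry-dash the means were -0.07 ± 0.11 in TBBPA samples and 0.48 ± 0.06 in controls at 8 dpf, and -0.87 ± 0.23 in TBBPA samples and 0.46 ± 0.43 in controls at 5 dpf.

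tefa, the PAR bZIP activator, was lower by all 4 probes at 5 dpf and by 3 of its 4 at 8 dpf. Its mean level over the probes was -0.07, -0.10 and -0.47 in TBBPA samples at 8 dpf, against 0.74, 0.61 and 0.34 in controls. At 5 dpf it was -0.56, -0.78 and -0.84 in TBBPA samples, against 0.77, 0.36 and 0.00 in controls. No TBBPA sample reached a control of its age. The averaged probes gave a log2 fold change of -0.74 ± 0.13 at 8 dpf (adjusted p = 0.00786 over genes) and -1.12 ± 0.11 at 5 dpf (adjusted p = 7.877e-05 over genes). The probes were unequal, although all were designed on the same RefSeq transcript. A_15_P108054 gave -0.40 ± 0.13 at 8 dpf (adjusted p = 0.185) and -0.80 ± 0.11 at 5 dpf (adjusted p = 9.641e-04). A_15_P749236 gave -0.92 ± 0.15 (adjusted p = 0.00787) and -1.31 ± 0.13 (adjusted p = 8.495e-05). The probes A_15_P166596 and A_15_P629056 lay at -0.71 and -0.95 at 8 dpf, and at -1.08 and -1.27 at 5 dpf.

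dbpa is the zebrafish relative of mammalian Dbp, a textbook output gene of the clock that clock and bmal switch on through E-boxes. Its 3 probes had values of similar size at both ages. The mean level was -0.32, -0.50 and -0.35 in TBBPA samples at 8 dpf, against 0.56, 0.58 and 0.16 in controls. At 5 dpf it was -0.38, -0.44 and -0.46 in TBBPA samples, against 0.90, 0.31 and -0.07 in controls. TBBPA samples were close together at each age (SD 0.10 at 8 dpf and 0.04 at 5 dpf), and controls at 5 dpf were spread widely (SD 0.49). The log2 fold changes of the 3 probes were -0.66, -0.83 and -0.87 at 8 dpf (adjusted p from 0.0148 to 0.0406) and -0.77, -0.93 and -0.97 at 5 dpf (adjusted p from 0.00114 to 0.00243), all called.

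bhlhe40 (Dec1 in mammals) was called lower by both probes at 8 dpf, after the days in clean water, and by 1 of the 2 at 5 dpf. Its mean level was 0.02, -0.29 and -0.72 in TBBPA samples at 8 dpf, against 0.81, 0.88 and 0.34 in controls. At 5 dpf it was -0.22, -0.36 and -0.52 in TBBPA samples, against -0.01, 0.10 and -0.02 in controls. The groups were apart at both ages, by a narrower gap at 5 dpf. A_15_P100831 gave -1.10 ± 0.13 at 8 dpf (adjusted p = 0.00128), the fifth lowest value of all probes, and -0.44 ± 0.11 at 5 dpf (adjusted p = 0.0244). A_15_P180036 gave -0.78 ± 0.10 (adjusted p = 0.00286) and -0.21 ± 0.09 (adjusted p = 0.164).

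**Figure D3:**
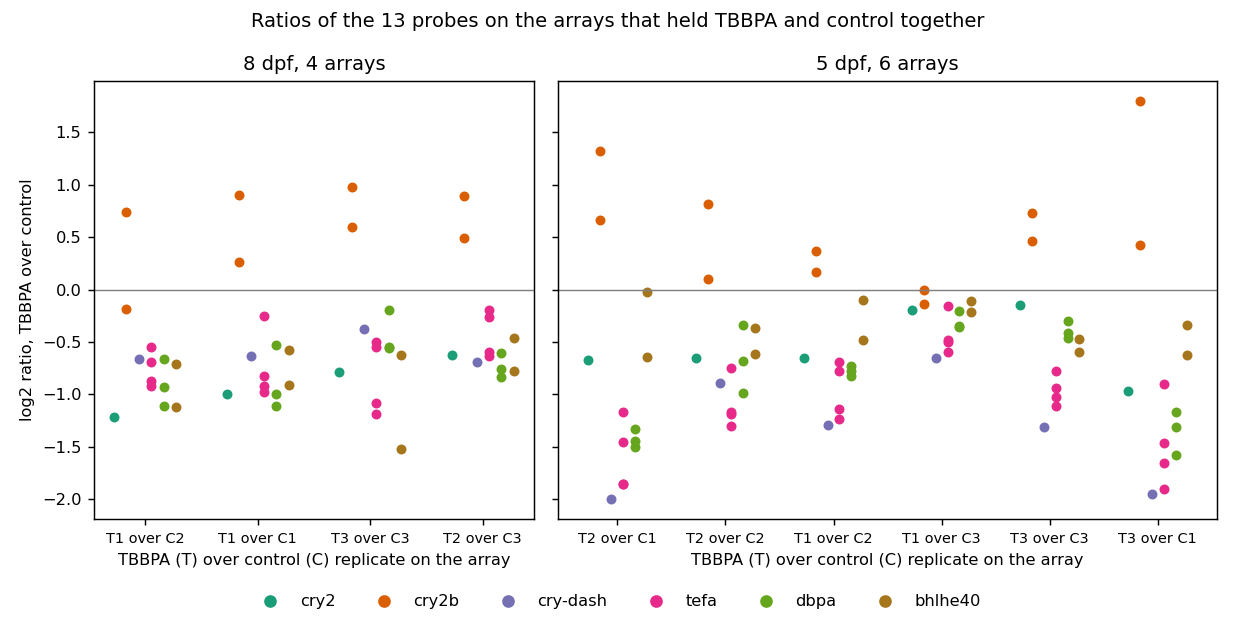
The plot of direct arrays shows the log2 ratio of TBBPA over control (vertical axis) for each of the 13 probes on the 4 arrays at 8 dpf and the 6 arrays at 5 dpf that held both treatments, with the replicates on each array named below it and a colour per gene. The probes of cry2, cry-dash, tefa, dbpa and bhlhe40 lie below 0 on every one of these arrays, and at 5 dpf the ratios of cry2, cry-dash, tefa and dbpa are furthest below 0 on the arrays that held control replicate 1.

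Whether the effect itself differed between the ages was tested as the 8 dpf effect minus the 5 dpf effect. 0 of 13 probes were called, against 0.0613% of all probes, and 5 of 13 had an unadjusted p under 0.05, against 11.5% of all probes. With the plates as replicates in limma, 2 of 13 had an unadjusted p under 0.05, as did 396 of all 17950 probes. For bhlhe40 the difference was -0.66 ± 0.17 (adjusted p = 0.145) and -0.57 ± 0.14 (adjusted p = 0.126) for the 2 probes. For cry-dash the difference was 0.79 ± 0.21 (adjusted p = 0.148), for cry2 it was -0.41 ± 0.15 (adjusted p = 0.279), and for the tefa probe A_15_P108054 it was 0.41 ± 0.17 (adjusted p = 0.375). The probe-wise 95% intervals of the difference ran from -0.37 to 0.56 for dbpa (the widest of its 3 probes) and from -0.51 to 0.49 for the cry2b probe A_15_P263411. When the probes of a gene were averaged, bhlhe40 had a difference of -0.61 ± 0.13 (adjusted p = 0.0954 over genes). Without control replicate 3 at 5 dpf the cry-dash difference (0.94) was called, as the only member in any such fit. Of all probes, that fit called 160 for the difference, against 11 with all samples. Without control replicate 1 at 5 dpf the cry-dash difference was 0.42, and 0 of all probes were called.

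With age, both cry2b probes were higher at 8 dpf in both treatments. Control eyes at 8 dpf had more cry2b RNA than control eyes at 5 dpf by 0.92 ± 0.18 and 1.31 ± 0.23 for its probes (adjusted p = 0.00127 and 6.654e-04), and TBBPA eyes at 8 dpf exceeded TBBPA eyes at 5 dpf by 0.96 ± 0.18 and 1.31 ± 0.23 (adjusted p = 7.126e-04 and 5.329e-04). In controls, cry2 (0.74 ± 0.14, adjusted p = 0.00137) and the bhlhe40 probe A_15_P180036 (0.76 ± 0.14, adjusted p = 7.142e-04) were also higher at 8 dpf. In total 4 of 13 probes were called higher at 8 dpf in controls, against 14.0% of all probes, and 0 of 13 lower, against 18.2%. After TBBPA, 2 of 13 were called higher, against 20.9%, and 0 of 13 lower, against 22.4%. Without control replicate 1 at 5 dpf the count in controls was 2. Of all probes, 1394 were then called in either direction, against 5792 with all samples. The 4 arrays that linked the ages all held replicate 1 of a 5 dpf group. With the plates as replicates, 5 of 13 probes were called higher at 8 dpf after TBBPA. Of all 17950 probes, that fit called 4911 with age after TBBPA and 3965 in controls, in either direction. The 5 were both probes of cry2b, cry-dash (0.79) and the tefa probes A_15_P629056 and A_15_P749236 (0.62 and 0.63). For cry-dash and these tefa probes the array fit gave 0.49, 0.35 and 0.32. In the plate fit the cry2b probes A_15_P173191 and A_15_P263411 differed by 0.65 and 0.88 after TBBPA and by 0.64 and 0.84 in controls. These values were smaller than the 0.92 to 1.31 of the array fit. In controls, the plate fit called cry2 (0.83) and bhlhe40 A_15_P180036 (0.72) as well.

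Within groups, some pairs of genes varied together and others did not. After each group's mean was taken off, the levels of tefa correlated with those of cry2 at r = 0.85, with dbpa at 0.82, with cry-dash at 0.74 and with bhlhe40 at 0.60, whereas cry2b ran against cry-dash at r = -0.86 and against tefa at -0.70. bhlhe40 was at r = 0.03 with cry-dash, 0.28 with dbpa, 0.60 with cry2 and -0.19 with cry2b, and cry2b was at -0.35 with cry2. These are descriptions over 12 samples that share arrays. Replicate 3 was the lowest of its group for 7 of 13 probes in TBBPA samples and 10 of 13 in controls at 8 dpf, and for 8 of 13 in TBBPA samples and 10 of 13 in controls at 5 dpf. Replicate 1 was the highest for 7 of 13 in TBBPA samples and 6 of 13 in controls at 8 dpf, and for 9 of 13 in each treatment at 5 dpf. The same numbers were thus most often at the ends in all 4 groups for these genes. The lead was small in controls at 8 dpf, where replicate 2 was highest for 5 of 13. The 13 probes stand for 6 genes that vary together in part, and these counts were not taken over all probes.

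The calls changed when single samples were left out, for these probes and for all probes. Each such fit also lost the arrays that held the sample. It kept 10 of the 14 arrays without replicate 1 of either 5 dpf group, and 12 without any other sample. Whether a call was lost through the sample itself or through fewer arrays was not tested. Without TBBPA replicate 1 at 8 dpf, 1 of the 13 probes was called at that age, bhlhe40 A_15_P100831, and of all 17950 probes 9 were, against 250 with all samples. Without TBBPA replicate 3 at 8 dpf 4 were called, and without control replicate 1 or control replicate 2 at 8 dpf 3 were called, namely cry2 and both probes of bhlhe40. Of all probes, these fits called 57, 26 and 30. Without control replicate 1 at 5 dpf, 3 probes were called at 5 dpf, cry-dash (-1.04) and the tefa probes A_15_P629056 and A_15_P749236 (-1.01 each), and the values of dbpa A_15_P119540 and A_15_P772801 and of cry2b A_15_P263411 were then -0.41, -0.58 and 0.48. Of all probes 49 were called in that fit, against 1270 with all samples. At 8 dpf the calls of cry2b A_15_P263411 and dbpa A_15_P119540 were each kept in 4 of the 12 fits that left out a sample, while their values stayed between 0.78 and 0.88 for cry2b and between -0.72 and -0.57 for dbpa. At 5 dpf the call of bhlhe40 A_15_P100831 was kept in 7 of 12, with values between -0.62 and -0.37. cry-dash and the tefa probes A_15_P629056 and A_15_P749236 at 5 dpf, and bhlhe40 A_15_P100831 at 8 dpf, were called in 12 of 12. No member changed its direction against the controls in any of these fits at either age. With the direct arrays of 8 dpf alone, 3 probes were called at 8 dpf, those of cry2 (-0.91) and bhlhe40 (-0.98 and -0.69). The count over all probes in that fit is not given here, so the 3 cannot be set beside a share of all probes.

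**Figure D4:**
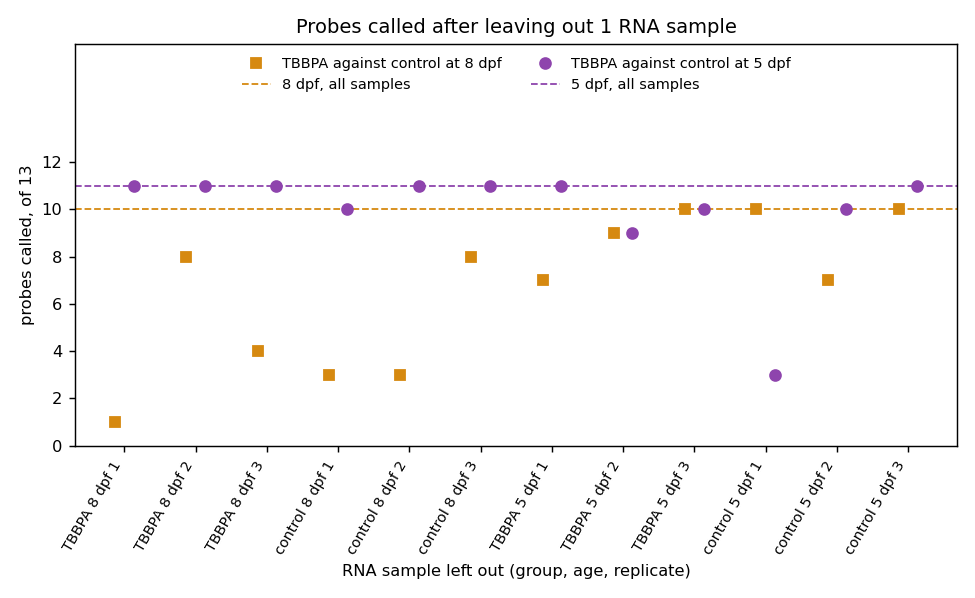
The plot of calls without single samples gives the number of the 13 probes called (vertical axis) after each of the 12 RNA samples was left out in turn (horizontal axis), with squares for 8 dpf, circles for 5 dpf and dashed lines at the counts of 10 and 11 with all samples. The lowest counts are 1 at 8 dpf and 3 at 5 dpf.

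Markers of some tissues outside the eye, and of a list that joins cornea and skin, differed at 5 dpf too. Of all probes, 2.84% were called lower and 4.23% higher at 5 dpf. Of 17 probes for digestive enzymes of the exocrine pancreas, 15 were lower after TBBPA at 5 dpf, and their mean log2 level was 0.59, 0.23 and -0.31 in TBBPA samples, against 2.01, 1.19 and 0.83 in controls, with the highest value in control replicate 1. For the liver markers, 5 of 10 probes were lower at 5 dpf, with a mean level of 1.5 in control replicate 1 and of -0.23 to 0.20 in the other 5 samples of that age. Of 23 probes for cornea and skin 15 were higher at 5 dpf, and 4 of 4 for blood were higher. At 8 dpf 0 probes of these lists were called, and the pancreas means were -0.67, -0.52 and -1.09 in TBBPA samples, against -0.29, -1.08 and -0.89 in controls. The part of these tissues in the 5 dpf values of the clock genes was not tested. Of the 15 cone probes, 5 were higher and 1 lower at 8 dpf, and 5 were higher and 2 lower at 5 dpf. Of 14 lens probes 6 were higher at 5 dpf, and of 12 probes for skeletal muscle 2 were, with 0 called at 8 dpf in both lists. Of 3 pineal probes 0 were called at 5 dpf and 1 was higher at 8 dpf. Of 3 probes for brain outside the eye 0 were called at either age. Each of the other lists of retinal cells had at most 2 probes called higher and at most 2 called lower at each age.

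The levels most like those of each gene over the 12 samples, by Pearson's r among 8941 other named genes, were partly of the same pathways. For tefa these were ddb2 (r = 0.962), hsf2 (0.958) and cry5 (0.955), and for cry-dash znf395b (0.929), hsf2 (0.925) and ddb2 (0.918). ddb2 encodes a subunit that recognises ultraviolet damage in DNA, hsf2 a heat shock factor, and cry5 the zebrafish (6-4) photolyase. For dbpa they were si:ch211-284a13.1 (0.983), nr1d1 (0.935) and ankrd33aa (0.931), and for cry2b rorcb (0.958), ppfia1 (0.937) and mmrn2a (0.937). nr1d1 and rorcb belong to the nuclear receptors that act on bmal genes in mammals, as repressor and activator. For cry2 they were gabrr2a, a GABA receptor subunit (0.965), nptx1l (0.964) and cdk5r2b (0.958), and for bhlhe40 prlra (0.935), vsnl1a (0.931) and gabrr2a (0.918). These r were taken with the group means left in, so shared differences by age and treatment enter them. They cannot be compared with the within-group r given earlier.

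Among the other cryptochromes and photolyases, 11 probes of 6 genes, 3 were lower and 1 higher at 8 dpf, and 6 were lower and 1 higher at 5 dpf. cry5 was lower by both its probes, with log2 fold changes of -0.60 ± 0.12 and -0.44 ± 0.10 at 8 dpf (adjusted p = 0.0194 and 0.0477) and -0.70 ± 0.10 and -0.69 ± 0.09 at 5 dpf (adjusted p = 0.00108 and 5.259e-04). cry4 was higher at both ages, by 0.38 ± 0.09 and 0.33 ± 0.07 (adjusted p = 0.0426 and 0.0139). cpdp, the photolyase for cyclobutane dimers, was called lower by 1 of its 3 probes at 8 dpf and by 3 of 3 at 5 dpf. A list of light-induced DNA repair genes, which shares the cry5 and cpdp probes, held 10 probes beside cry-dash, of which 3 were lower at 8 dpf and 7 at 5 dpf, with 0 higher. Its ddb2 probe had levels of 0.01, 0.11 and -0.26 in TBBPA samples at 8 dpf, against 0.65, 0.47 and 0.32 in controls, and the value of -0.51 ± 0.13 was not called (adjusted p = 0.0685). At 5 dpf its levels were -0.44, -0.63 and -0.68 in TBBPA samples, against 0.32, 0.14 and 0.01 in controls, a change of -0.73 ± 0.11 (adjusted p = 0.00143).

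Of the remaining PAR bZIP probes, tefb was lower at 5 dpf (-0.60 ± 0.15, adjusted p = 0.0225) and had -0.52 ± 0.17 at 8 dpf (adjusted p = 0.194), and both hlfa probes had values between -0.14 and -0.01 and were not called. The nfil3 family was divided. nfil3-6, the factor with 5 probes, was called lower by 2 of them at 8 dpf and by all 5 at 5 dpf (-0.46 to -0.89). nfil3 was higher at 5 dpf by 0.76 ± 0.11 (adjusted p = 0.00133) and nfil3-5 by 2.15 ± 0.36 (adjusted p = 0.00268), while their values at 8 dpf, 0.42 and 1.46, were not called. bhlhe41, the relative of bhlhe40, was lower by 1 of its 2 probes at 8 dpf and by both at 5 dpf (-0.39 and -0.89).

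The genes of the core loop were not uniform. Of 15 probes for period and Rev-erb genes, 5 were lower at 8 dpf and 7 at 5 dpf, with 0 higher. per1b was lower, at -2.20 ± 0.23 at 8 dpf (adjusted p = 0.00126) and -1.94 ± 0.20 at 5 dpf (adjusted p = 1.063e-04), and so was nr1d1, at -1.72 ± 0.35 (adjusted p = 0.0231) and -2.07 ± 0.29 (adjusted p = 0.00118). per2 was not called by any of its 3 probes at either age (-0.30 to 0.05). Of 4 probes for the E-box activators, 0 were called at 8 dpf and 1 at 5 dpf, bmal1a, which was higher by 0.56 ± 0.10 (adjusted p = 0.00501). Of 9 ROR probes, 0 were called at 8 dpf, and at 5 dpf rorcb was higher (0.81 ± 0.16, adjusted p = 0.00682) and 1 roraa probe lower (-0.38 ± 0.09, adjusted p = 0.0222).

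**Figure D5:**
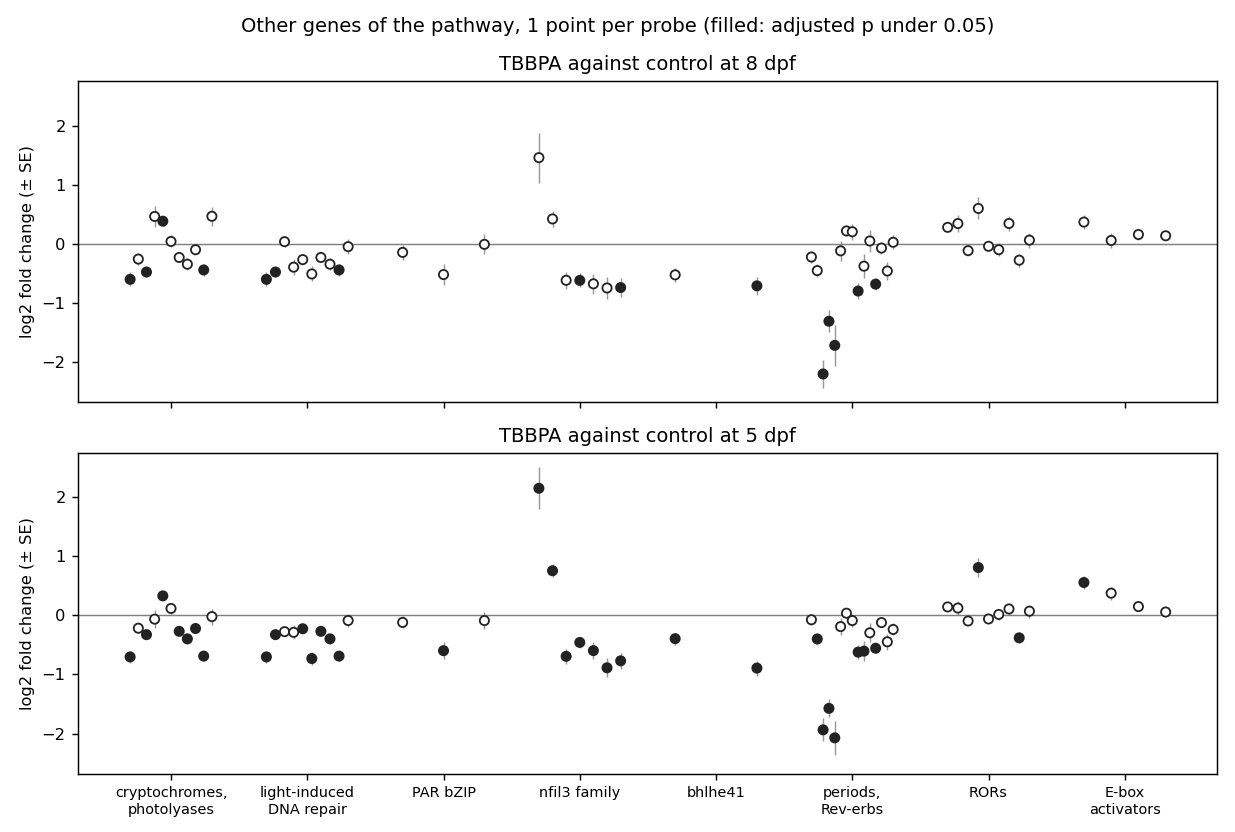
The plot of the other pathway genes shows the log2 fold change of TBBPA over control (vertical axis, bars ± SE) for each probe of 8 gene lists without the 6 genes above, at 8 dpf in the upper and 5 dpf in the lower panel, with filled points where the adjusted p was under 0.05. The probes of cry5 and cpdp stand in the first and second list. The points furthest from 0 are nfil3-5 above it and per1b, nr1d1 and an nr1d2b probe below it.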

How the data were processed

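RNA from 12 pooled eye samples was measured on 14 two-colour Agilent zebrafish arrays. According to the methods, the authors quantified spots with GenePix, left out spots that were dim on all arrays, corrected the background with normexp, normalised within arrays by loess and used limma 3.34.4. The table deposited by the authors holds 1 ratio for each probe on each array, read here as log2 because the methods give fold changes as binary logarithms. The table itself names neither base nor direction. Red over green (Cy5 over Cy3) was taken from the dye labels. Turning any single array raised the residual sum of squares, to between 1.02 and 1.88 times its value. This check is blind to a turn of the whole set. Medians of the arrays ran from -0.02 to 0.00. Precision is limited by the number of plates, 3 per group, and by the number of arrays.

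The ratios were fitted as deposited with limma 3.58.1 in R 4.3.3, with a coefficient per group and the RNA sample as a random effect. The share of the variance given to the RNA sample, estimated once over all probes together, was 0, or 0.24 with a dye effect. Tests were two-sided and moderated, with 11 residual degrees of freedom, and p was adjusted by Benjamini-Hochberg over all probes. SE and p therefore take arrays as replicates. Levels per RNA sample were obtained by least squares. Alternatives were a dye effect, plates as replicates, direct arrays alone, a replicate block, median centring, scaling and gene averages over 8947 genes. Further alternatives were a fold threshold (log2 fold change of 0.75), Holm adjustment, robust moderation, and leaving out each sample. The fits were tested on simulated data.

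Names came from the platform table (14135 probes), updated by accession for 3015 probes through a RefSeq table of the GRCz12tu assembly, used for names alone since the files name no build. All member probes, the pathway lists, the marker lists and the 3 most alike genes per member were named by rule. The members and lists were chosen with earlier results of these data known. No sequence of a member was used here.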

Additional observations from a re-analysis of the deposited data

How the results depend on the processing

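With the 13 probes, median centring and robust moderation gave the same counts of calls. A dye effect or the fold threshold moved no count by more than 1.5 times. With the dye effect, cry2b A_15_P263411 (adjusted p = 0.0585) and dbpa A_15_P119540 (0.0582) were not called at 8 dpf. At 5 dpf bhlhe40 A_15_P100831 (0.078) was not called. Of all probes, that fit called 202 at 8 dpf and 590 at 5 dpf, against 250 and 1270 without it. With the plates as replicates, 0 probes were called at 8 dpf and 0 at 5 dpf, and 5 with age after TBBPA. Of all probes, that fit called 0, 1 and 4911. The direct arrays alone gave 3 at 8 dpf. Holm adjustment gave 3 at 8 dpf, 4 at 5 dpf, and 0 with age in controls and 0 after TBBPA. Scaling the arrays to 1 spread left 1 with age in controls and 1 after TBBPA. The averaged probes gave 5 of 6 genes at 8 dpf, 6 of 6 at 5 dpf and 1 with age after TBBPA, a count of genes and not of probes. Over all probes, deviations from the group means were correlated between TBBPA and control samples of the same number. For replicates 1 to 3 this gave 0.68, -0.46 and 0.09 at 8 dpf and -0.14, -0.11 and -0.04 at 5 dpf. No consistent pairing was found. At 8 dpf, TBBPA replicates 1 and 2 reached 0.49 and 0.59 with controls of another number. The 2 samples of replicate 1 at 8 dpf also shared an array. So did other pairs of TBBPA and control samples at both ages, of the same and of different numbers. Levels of samples on a shared array are not independent, so these values cannot separate a pairing of plates from shared arrays. The fit with a replicate block gave 11 probes at 8 dpf, 11 at 5 dpf, 5 with age in controls and 7 after TBBPA. Apart from the dye effect, the plates as replicates and the fits without single samples, counts over all probes are not given here. The counts of those other settings cannot be set beside a share of all probes. Leaving out 1 sample gave counts from 1 to 10 at 8 dpf and 3 to 11 at 5 dpf. For the difference of the effects they were 0 to 1, and with age 2 to 5 in controls and 1 to 6 after TBBPA. Of all probes, these fits called 9 to 594 at 8 dpf and 49 to 1700 at 5 dpf, and 0 to 160 for the difference. With age they called 1394 to 6914 in controls and 1765 to 7575 after TBBPA. After TBBPA, the count with age was 1 without TBBPA replicate 1, 3 without control replicate 1 and 6 without control replicate 3, all at 5 dpf. Of all probes, these fits called 1765, 5615 and 7575. The 40 values of single probes behind the comparisons kept their direction under every alternative run. Another 25 values of the difference and the age comparisons, most of them not described singly, were not called with the settings used above. Of these, 17 changed sign and 4 were called under some alternative. Some settings use fewer samples or fewer arrays, and the cause of these shifts was not tested.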
